A study of Homo sapiens with 9 samples.

Results

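The contractile actin and smooth muscle genes are 10 genes, ACTA2, ACTC1, ACTG2, TAGLN, CNN1, MYL9, TPM1, TPM2, CALD1 and ACTN1, chosen by gene symbol from the 31589 genes that the deposited count tables list. They were followed in human spinal cord organoids (SCOs), which are grown in suspension from induced pluripotent stem cells of the WTC line and model the developing neural tube together with neural crest cells. Bulk RNA sequencing of messenger RNA gave 9 libraries from 3 conditions, with 3 replicates of each. Vehicle SCOs received FGF without these compounds, VPA SCOs received valproic acid, an inhibitor of histone deacetylases, and VPA+Rapamycin SCOs received valproic acid together with an inhibitor of mTOR. The study's text gives FGF to the VPA SCOs too, while the labels name FGF for vehicle only. The labels state 96 h of treatment for all libraries. A shorter exposure to VPA stands in the study's text, and which of the times holds for these libraries is not settled by the sources used here. There was no condition with Rapamycin alone. The labels give the genotype as WT in all 9 libraries, while the study's methods describe WTC cells that carry a reporter cassette inserted at SOX10. According to the study, each library pooled several SCOs grown from a single edited clone. The labels give same-numbered libraries of the 3 conditions a shared code, but do not say which clone a code or replicate number stands for. The main tests took no pairs, so p-values measure the spread between these libraries.

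Contractile cells pull on actin filaments with myosin. ACTA2, ACTC1 and ACTG2 encode the actins of vascular smooth muscle, heart and visceral smooth muscle, and MYL9 encodes a regulatory light chain whose phosphorylation by MYLK switches the motor on. TPM1 and TPM2 encode tropomyosins, which lie along the filament, while CNN1 (calponin) and CALD1 (caldesmon) restrain the motor. TAGLN (transgelin) and ACTN1 (alpha-actinin) bundle and cross-link filaments. Many of these genes are transcribed by serum response factor (SRF) with its myocardin-related cofactors, which bind CArG boxes. Several of them are also used outside muscle, in stress fibres of mesenchymal cells and in the cell cortex of the neural tube, so none of them marks a muscle cell by itself.

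The libraries held 15290299 to 17417338 counts on genes, so that 3 counts, taken here as the limit that a count of 0 allows, amounted to 0.172 to 0.196 CPM, which are counts scaled to a library of 1000000. Such limits cover counting error only. All 10 neural progenitor markers and all 8 neuron markers examined were listed in every table, with summed levels of 2080 to 2599 and 1233 to 2406 CPM. The SD was largest in vehicle for 7 of the 9 contractile genes with counts in all tables, the exceptions being ACTC1, with the largest SD in VPA, and TAGLN, with the largest in VPA+Rapamycin. Of these 9 genes, 8 were highest in vehicle replicate 1 among the vehicle libraries, where 39.4% of all genes compared were highest, and 7 were lowest in vehicle replicate 3, where 40.4% of all genes were lowest. The summed level of the 9 genes was 444 CPM in vehicle replicate 1, 350.2 CPM in replicate 2 and 318 CPM in replicate 3. Neuron markers had the opposite order, with 1410, 1864 and 2406 CPM, and the part of cell composition in the spread between vehicle libraries was not tested.

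Levels between genes were compared as CPM per kilobase of gene length (RPKM). TPM2 was the most abundant of the 10 in every condition, at 31.2 ± 9.27 RPKM in vehicle, 29.9 ± 1.76 RPKM with VPA and 27.0 ± 1.75 RPKM with VPA+Rapamycin (SD, n = 3 each). CALD1 and ACTN1 came next in all conditions, at 9.56 and 7.53 RPKM in vehicle. In vehicle the libraries of TPM1, MYL9, ACTA2, CNN1, ACTC1 and TAGLN overlapped from each gene to the next in this order, with means between 4.81 RPKM for TPM1 and 0.863 RPKM for TAGLN. In VPA all neighbours were apart, and CNN1 stood above TPM1, with 5.12 against 3.35 RPKM. In CPM, without length, the order was the reverse, with means of 14.8 for CNN1 and 43.1 for TPM1 in VPA. The deposited lengths were 2887 bases for CNN1 and 12876 for TPM1, and the order in RPKM depends on them. In VPA+Rapamycin CALD1 overlapped ACTN1, CNN1 overlapped ACTA2 and TAGLN overlapped ACTC1. ACTG2 was last throughout, at 0.00576 RPKM in vehicle.

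ACTG2, the visceral smooth muscle actin, was not detectable at this depth. Vehicle libraries had 0, 1 and 0 counts of it and VPA+Rapamycin libraries 0, 0 and 1. Both tables with VPA leave it out, and since the smallest sum over a row of any table is 2 counts, its VPA libraries held 0 counts. It was tested in no comparison, and the following counts of genes refer to the other 9.

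The muscle actins encode nearly the same protein, so their coding sequences are shown to tell how far reads can separate them. Over the last 1131 coding bases ACTA2 and ACTC1 were identical at 85.5% of positions, ACTA2 and ACTG2 at 84.4% and ACTC1 and ACTG2 at 85.6%. The last 30 coding bases of each principal transcript, up to the stop codon, are given 5′ to 3′ from GENCODE 29 on GRCh38, with capitals at the 4 positions where the genes differ.
ACTA2: ccTtccattgtccacCgCaaAtgcttctaa
ACTC1: ccAtccattgtccacCgCaaAtgcttctaa
ACTG2: ccCtccattgtccacAgGaaGtgcttctaa
In this stretch ACTA2 and ACTC1 can be separated only at the first capital. Over the whole transcripts, however, 0.875% of the 50-base windows of ACTA2, 0.215% of those of ACTC1 and 0.2% of those of ACTG2 occurred in a transcript of any other gene, and none of these windows was shared with another member of the list. The share was also 0.161% for CNN1 and 1.03% for TPM1, 4.1% for ACTN1, some of it with ACTN4 and TPM4, and 0% for TAGLN, MYL9, TPM2 and CALD1.

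Promoters of the members were searched for the CArG box because SRF binds it. The box is CC, then 6 bases that are A or T, then GG, which reads the same kind of motif on both strands. RefSeq promoter windows of 300 bases, 250 before and 50 after the start on GRCh38.p14, were at hand for 8 of the 10 genes, all but TAGLN and MYL9. An exact box stood in 3 of these 8 genes, compared with 1.6% of all genes in the table. It was found in 3 of their 18 windows, against 1.29% of all windows. The 4 boxes are shown in capitals with 10 bases on either side, on the strand of the gene.
ACTC1, chr15:34795639-34795668, minus strand: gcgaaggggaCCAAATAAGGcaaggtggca
ACTG2, chr2:73892888-73892917, plus strand: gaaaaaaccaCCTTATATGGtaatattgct
ACTG2, chr2:73892925-73892954, plus strand: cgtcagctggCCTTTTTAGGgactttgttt
ACTN1, chr14:68977718-68977747, minus strand: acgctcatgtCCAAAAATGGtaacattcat
The box of ACTC1 begins 109 bases before the start, those of ACTG2 at 110 and 73 bases and that of ACTN1 at 171 bases before 1 of its 4 starts. ACTA2, CNN1, TPM1, TPM2 and CALD1 held no exact box in these windows. A match is a description of letters, and ACTG2, with a pair of boxes, had almost no counts.

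The first comparison, VPA against vehicle, asks which of these genes moved when the SCOs were exposed to valproic acid. CNN1 and ACTN1 rose and TPM1 fell, and the other 6 tested genes did not pass. CNN1 was about 3-fold higher, and the changes of ACTN1 and TPM1 were smaller than that. The test was edgeR's quasi-likelihood test with Benjamini-Hochberg adjustment over all genes, passed at an adjusted p of at most 0.05. Of the 9 genes 2 passed higher and 1 lower, that is 33.3%, beside 32.1% of all 17360 genes tested, 16.4% higher and 15.7% lower. The median log2 fold change of the 9 genes was 0.06, against -0.003 for all genes. The share of genes called was thus near that of all genes. In bulk libraries, fewer cells of a type and less RNA per cell cannot be told apart. Without vehicle replicate 2, VPA replicate 2 or VPA replicate 3 only CNN1 passed higher, and without VPA replicate 2 or 3 none passed lower.

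CNN1, calponin, a protein of differentiated smooth muscle, had 7.28, 4.61 and 2.66 CPM in vehicle and 15.9, 13.1 and 15.4 CPM in VPA. Every VPA library lay above every vehicle library. The log2 fold change was 1.60 (standard error, SE, 0.29), that is 3.02-fold (adjusted p = 0.0021, edgeR), and it passed under all 13 alternatives, with log2 fold changes from 1.31 to 2.02. On the raw scale these were 123, 70 and 43 counts in vehicle and 266, 212 and 271 counts in VPA.

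ACTN1, the alpha-actinin of stress fibres and focal adhesions, had 96.0, 80.2 and 63.9 CPM in vehicle and 114, 116 and 116 CPM in VPA. The VPA libraries were close to each other and above all vehicle libraries. Its log2 fold change was 0.52 (SE 0.14), or 1.43-fold (adjusted p = 0.0136, edgeR). It passed under 10 of 13 alternatives, and without vehicle replicate 2, VPA replicate 2 or VPA replicate 3 the adjusted p was 0.0525, 0.0556 and 0.0553.

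TPM1, a tropomyosin made in muscle and non-muscle isoforms, had 74.5, 60.0 and 51.2 CPM in vehicle and 45.8, 43.3 and 40.2 CPM in VPA. All VPA libraries lay below the vehicle libraries. The log2 fold change was -0.53 (SE 0.14, adjusted p = 0.0150, edgeR), and it passed under 11 of 13 alternatives. The adjusted p was 0.0624 without VPA replicate 2 and 0.0757 without VPA replicate 3. Counts per gene do not separate the isoforms of TPM1.

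TAGLN, transgelin, had 4.08, 3.03 and 3.03 CPM in vehicle and 2.09, 2.47 and 1.93 CPM in VPA. Its libraries did not overlap either, but the log2 fold change of -0.66 (SE 0.29) had an adjusted p of 0.11 (edgeR) and did not pass. Groups that do not overlap were thus found for 2 genes upward and 2 downward, and 47.5% of all genes tested were apart in this way, 24.9% higher and 22.6% lower. The exons of TAGLN share 446 bases (11.4% of its exon bases) with PCSK7 on the opposite strand, and PCSK7 averaged 431 counts where TAGLN averaged 45.4. The use of strand in counting is not given in the sources used here, so how reads on these shared bases were assigned is not known. The log2 fold change of PCSK7 itself was 0.05 (SE 0.19).

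MYL9, the regulatory light chain, had 20.9, 10.9 and 7.37 CPM in vehicle and 18.5, 20.6 and 19.7 CPM in VPA. Vehicle replicate 1 was as high as the VPA libraries, and the others were well below them. The log2 fold change was 0.57 (SE 0.29, adjusted p = 0.15, edgeR). Without vehicle replicate 1 it was 1.09 (adjusted p = 0.000716). With all libraries kept it also passed without a filter on low counts (adjusted p = 0.0192) and with the replicate block (0.0466), so the call on MYL9 changed with 1 library and with these settings.

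ACTC1, the heart actin that is also made in early skeletal muscle, had 5.50, 3.49 and 3.22 CPM in vehicle and 7.47, 4.01 and 5.74 CPM in VPA, and the groups overlapped. Its log2 fold change of 0.48 (SE 0.30, adjusted p = 0.24, edgeR) did not pass. ACTA2, the smooth muscle actin commonly used to mark myofibroblasts, had 10.8, 7.11 and 5.82 CPM in vehicle and 7.89, 8.27 and 8.75 CPM in VPA. The VPA values lay inside the range of vehicle, with a log2 fold change of 0.06 (SE 0.24, adjusted p = 0.88, edgeR) that turned to -0.12 without vehicle replicate 3 and to -0.015 without vehicle replicate 2. ACTA2 shares 380 exon bases (12.8%) with FAS on the opposite strand. FAS averaged 112 counts where ACTA2 averaged 124, and its log2 fold change was -0.54 (SE 0.21). It also overlaps STAMBPL1 without shared exon bases, and the part of these genes in its counts was not tested.

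TPM2 and CALD1, the most abundant of the 10 in vehicle per length, did not pass. TPM2 had 135, 90.1 and 78.2 CPM in vehicle and 93.5, 94.1 and 104 CPM in VPA, a log2 fold change of -0.07 (SE 0.17) that turned to 0.20 without vehicle replicate 1. CALD1 had 89.1, 90.9 and 102 CPM in vehicle and 102, 101 and 91.1 CPM in VPA, a log2 fold change of 0.05 (SE 0.11). For both genes the groups overlapped.

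**Figure D1:**
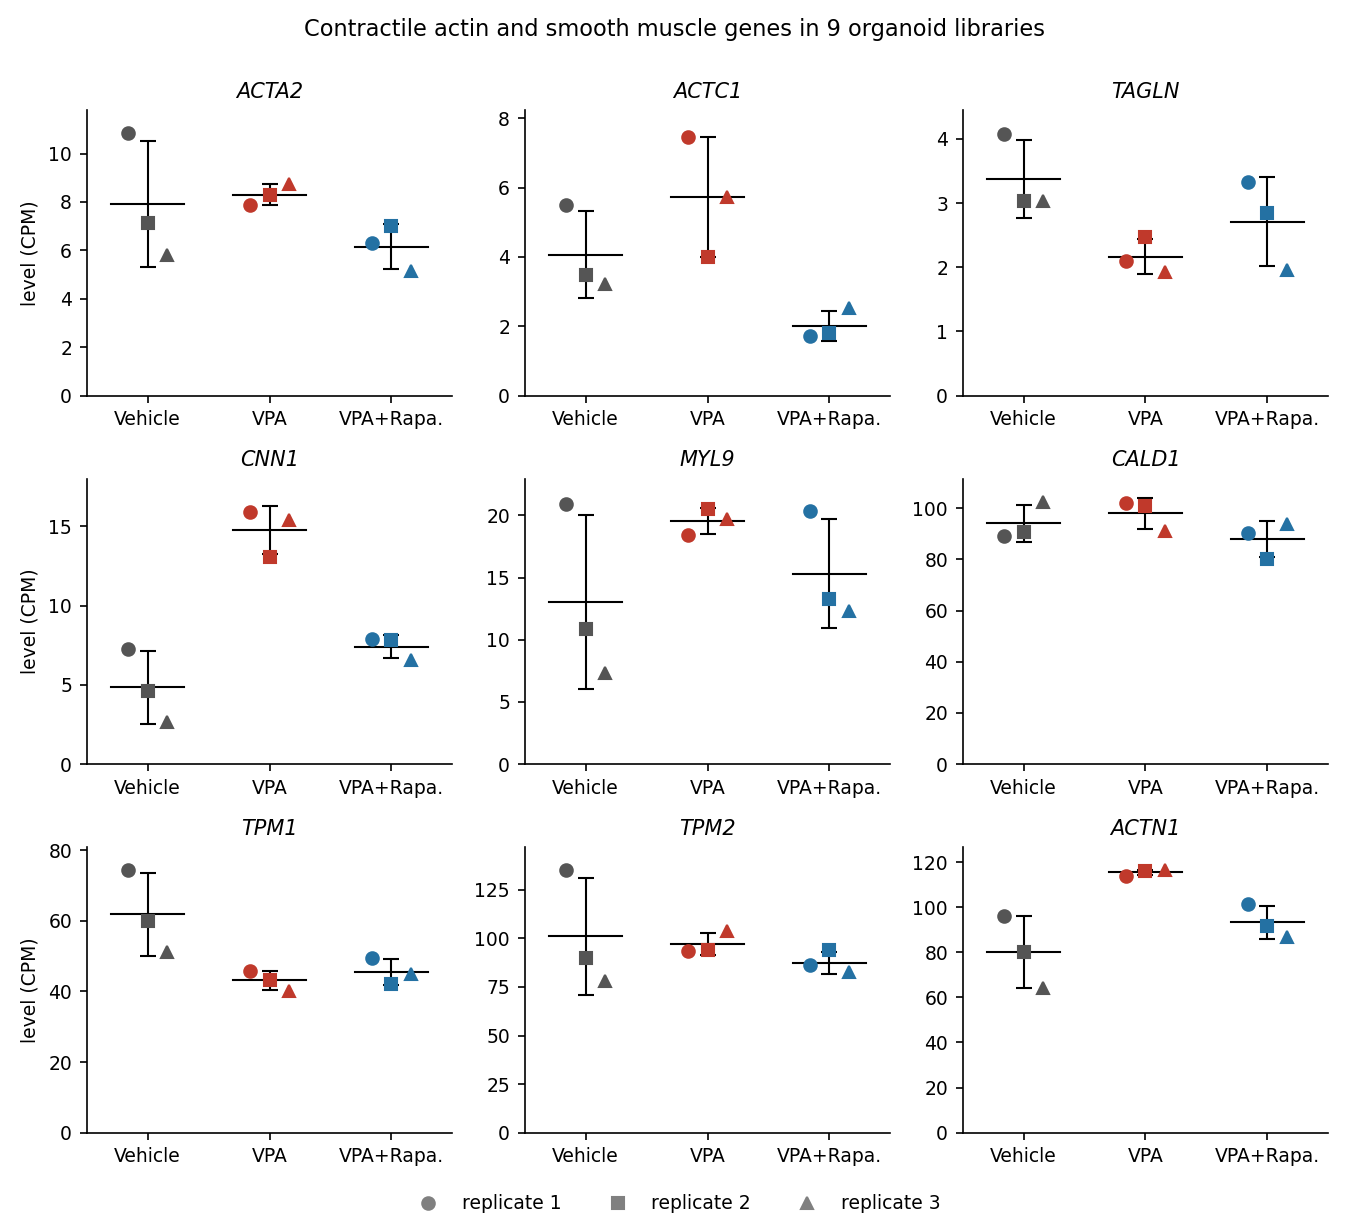
Level in CPM (linear axis from 0) of the 9 genes with counts in all tables, by condition. Points are libraries, with the shape giving the replicate number, the wide line is the mean and the bars are the SD (n = 3). CNN1 stands between 13.1 and 15.9 CPM in VPA, above all other libraries, while vehicle replicate 1 is the highest vehicle library for all genes but CALD1.

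The second comparison, VPA+Rapamycin against VPA, asks what changed when Rapamycin was added to VPA. It uses the same VPA libraries as the first comparison, so a rise with VPA and a fall on adding Rapamycin are not independent. ACTC1, CNN1 and ACTN1 fell, by 1.51, 0.99 and 0.30 on the log2 scale. No gene passed higher in edgeR, and DESeq2 also called 0 higher and these 3 lower. At an unadjusted p under 0.05 the counts were 0 higher and 5 lower, and the share of all genes there was not counted. The 3 of 9 genes (33.3%) that passed in edgeR stand beside 6.74% of all 17317 genes tested, 3.01% higher and 3.73% lower. The median log2 fold change of the 9 genes was -0.30, against 0.004 for all genes. When all 9 libraries entered 1 fit, only ACTC1 of the 9 genes passed, and 113 of all genes instead of 1168.

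ACTC1 had 7.47, 4.01 and 5.74 CPM in VPA and 1.73, 1.81 and 2.52 CPM in VPA+Rapamycin. Every library with Rapamycin lay below every VPA library, though the VPA libraries were spread. The log2 fold change was -1.51 (SE 0.29), leaving 0.352 of the VPA level (adjusted p = 0.00349, edgeR), and it passed under all 13 alternatives, with values from -1.71 to -1.28. The counts behind it were 125, 65 and 101 in VPA and 29, 31 and 40 with Rapamycin added.

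CNN1 went from 15.9, 13.1 and 15.4 CPM in VPA to 7.91, 7.80 and 6.55 CPM in VPA+Rapamycin. The groups were apart and tight, and about 0.503 of the VPA level was left. The log2 fold change was -0.99 (SE 0.16, adjusted p = 0.000932, edgeR), which passed under 12 of 13 alternatives and had an adjusted p of 0.11 in the fit of all 9 libraries. ACTN1 had 114, 116 and 116 CPM in VPA and 101, 91.6 and 86.9 CPM in VPA+Rapamycin. All libraries with Rapamycin were lower, with a log2 fold change of -0.30 (SE 0.08, adjusted p = 0.0209, edgeR). ACTN1 passed under 8 of 13 alternatives. It did not pass in the fit of all 9 libraries (adjusted p = 0.30), nor without VPA replicate 1, 2 or 3 or VPA+Rapamycin replicate 3, where the adjusted p was 0.0607, 0.0909, 0.0605 and 0.11.

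ACTA2 was the other gene whose libraries did not overlap, with 6.31, 6.99 and 5.17 CPM in VPA+Rapamycin below its 3 VPA libraries, but its log2 fold change of -0.43 (SE 0.19) had an adjusted p of 0.19 (edgeR). So 4 genes were lower without overlap, where 25.5% of all genes were apart, 13.2% of all genes lower and 12.3% higher. MYL9 had 20.3, 13.3 and 12.3 CPM in VPA+Rapamycin, and only the first of these reached the VPA libraries. Its log2 fold change was -0.35 (SE 0.16, adjusted p = 0.21, edgeR), and -0.61 (adjusted p = 0.0134) without VPA+Rapamycin replicate 1.

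TPM1, which fell with VPA, had 49.5, 42.2 and 44.9 CPM in VPA+Rapamycin and overlapped VPA, with a log2 fold change of 0.08 (SE 0.09, adjusted p = 0.66, edgeR). TAGLN had 3.33, 2.85 and 1.95 CPM with Rapamycin, a log2 fold change of 0.33 (SE 0.31, adjusted p = 0.59). These were the genes with estimates above 0. TPM2 had 86.2, 93.8 and 82.7 CPM and CALD1 90.3, 80.2 and 93.8 CPM in VPA+Rapamycin, with log2 fold changes of -0.15 for both (SE 0.08 each), and neither passed.

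**Figure D2:**
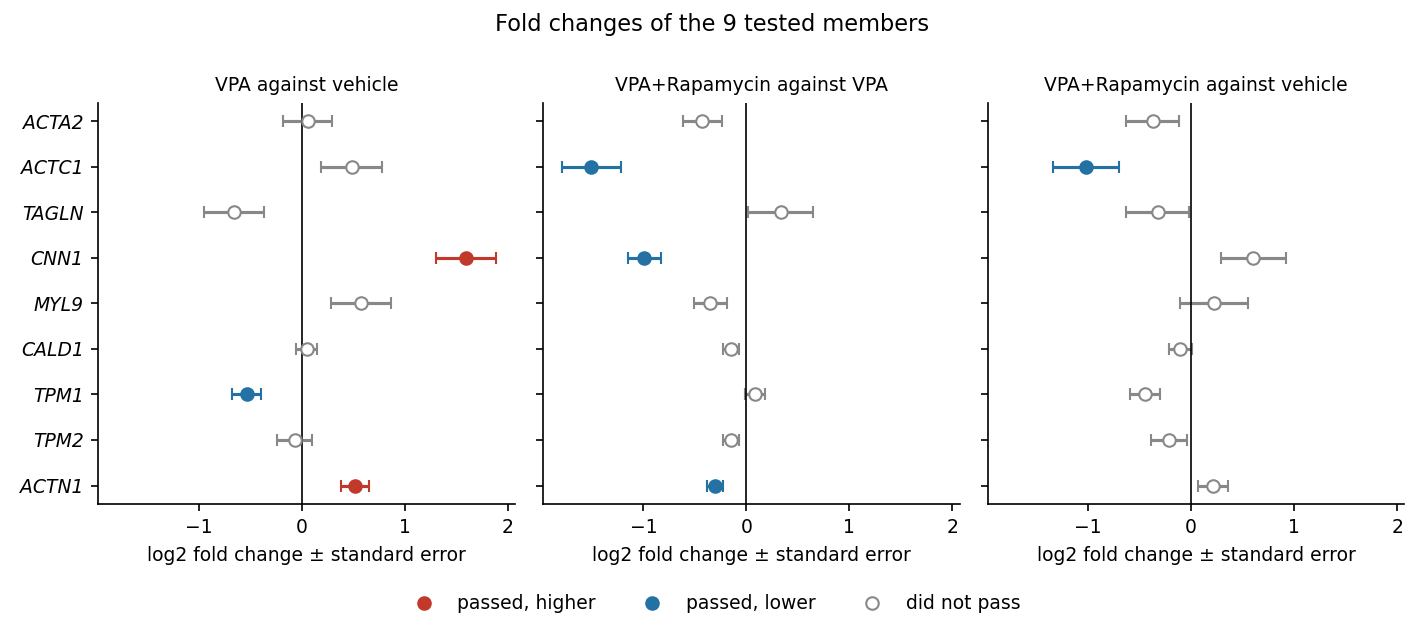
Log2 fold change of each tested gene in the 3 comparisons, with bars of 1 standard error (edgeR). Filled points passed at an adjusted p of at most 0.05, red higher and blue lower, and open points did not. CNN1 lies at 1.60 with VPA and at -0.99 when Rapamycin was added. ACTC1 lies at -1.51 and -1.02 in the comparisons with VPA+Rapamycin. The left and middle panels share the VPA libraries, and the middle and right panels share the VPA+Rapamycin libraries. Vehicle libraries are shared by the left and right panels.

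The third comparison, VPA+Rapamycin against vehicle, asks how far the genes stood from vehicle with both compounds. It shares its libraries with the other comparisons, so the values are set side by side and are not independent. ACTC1 passed lower, and no gene passed higher in edgeR. At an unadjusted p under 0.05 there were 0 higher and 2 lower, and the share of all genes there was not counted. DESeq2 called 0 higher and 2 lower, ACTC1 and TPM1. The 1 gene of 9 (11.1%) stands beside 19.0% of all 17383 genes tested, 9.81% higher and 9.22% lower, and the median log2 fold change was -0.22 against -0.0009 for all genes.

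ACTC1 had 5.50, 3.49 and 3.22 CPM in vehicle and 1.73, 1.81 and 2.52 CPM in VPA+Rapamycin, without overlap. The log2 fold change was -1.02 (SE 0.32, adjusted p = 0.0459, edgeR). It did not pass under 6 of 13 alternatives, which were upper-quartile factors (adjusted p = 0.0531) and leaving out vehicle replicate 1 (0.13) or 2 (0.0765) or VPA+Rapamycin replicate 1 (0.15), 2 (0.15) or 3 (0.0688). TPM1, with 49.5, 42.2 and 44.9 CPM below its 3 vehicle libraries, missed the threshold with a log2 fold change of -0.45 (SE 0.15, adjusted p = 0.0511) and passed under 7 of 13 alternatives. These were the only members apart in this comparison, 2 of 9, both lower, where 38.5% of all genes were apart, 20.3% higher and 18.2% lower.

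CNN1 lay between the other conditions with Rapamycin. Its 7.91, 7.80 and 6.55 CPM overlapped vehicle replicate 1 at 7.28 CPM, and the log2 fold change of 0.60 (SE 0.31, adjusted p = 0.20, edgeR) passed when vehicle replicate 1 was left out (1.02, adjusted p = 0.0204). ACTN1 had a log2 fold change of 0.21 (SE 0.14, adjusted p = 0.34). The remaining estimates were 0.22 for MYL9, -0.37 for ACTA2, -0.33 for TAGLN, -0.22 for TPM2 and -0.11 for CALD1, and none passed. MYL9 turned to -0.062 without vehicle replicate 3 and to -0.034 without VPA+Rapamycin replicate 1, and TPM2 to 0.046 without vehicle replicate 1.

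Relatives from the same protein families were set beside the members, as shares of the summed RPKM of each family. The size of a share depends on the deposited gene lengths, such as 12876 bases for TPM1 and 3248 for TPM2. Among the actins the cytoplasmic forms ACTB and ACTG1 made up 35.2% and 64.6% of RPKM in vehicle, and ACTA2 made up 0.0956% in vehicle, 0.0957% with VPA and 0.0823% with VPA+Rapamycin. ACTC1 made up 0.0318%, 0.0427% and 0.0176% in the same order, and the skeletal actin ACTA1 0.0183%, 0.00764% and 0.0122%. ACTA1 had at most 1.3 CPM in any library and could not be tested, and its shares overlapped among conditions. ACTB fell when Rapamycin was added (log2 fold change -0.34, SE 0.07, adjusted p = 0.00744, edgeR), while ACTG1 did not pass in any comparison. In the fit of all 9 libraries ACTB did not pass on adding Rapamycin (adjusted p = 0.0772).

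CNN1 was 1.02% ± 0.41 of calponin RPKM in vehicle, 3.45% ± 0.44 with VPA and 1.96% ± 0.13 with VPA+Rapamycin (SD, n = 3 each). CNN3 made up the bulk of the rest, with 83.5%, 73.6% and 76.2%. CNN3 fell with VPA by 0.30 on the log2 scale (SE 0.09, adjusted p = 0.0267, edgeR) and CNN2 did not pass (0.42, SE 0.19). The fall of CNN3 passed under 7 of 13 alternatives. It was lost without a filter on low counts, with the replicate block, without vehicle replicate 2 or without any 1 of the VPA replicates. Among the alpha-actinins ACTN1 made up 20.6% ± 1.36, 29.3% ± 1.12 and 25.6% ± 1.45. The other non-muscle form, ACTN4, made up 74.2% in vehicle and did not pass, and the fast skeletal muscle form ACTN3 fell with VPA by 1.62 on the log2 scale (SE 0.36, adjusted p = 0.00645).

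TPM2 made up 29.6%, 26.9% and 27.5% of tropomyosin RPKM in vehicle, with VPA and with VPA+Rapamycin. The tropomyosin share of TPM1 was 4.60% ± 0.34 in vehicle, 3.00% ± 0.17 with VPA and 3.60% ± 0.16 with VPA+Rapamycin. TPM3 rose with VPA (log2 fold change 0.43, SE 0.09, adjusted p = 0.0055, edgeR), so that of the tropomyosins 1 rose and 1 fell. TPM4 fell when Rapamycin was added, by 0.28 on the log2 scale (SE 0.08, adjusted p = 0.043), but not in the fit of all 9 libraries (adjusted p = 0.22). MYL9 made up 9.01% ± 5.04 of regulatory light chain RPKM in vehicle. Of its relatives MYL12A rose with VPA (0.49, SE 0.12, adjusted p = 0.00814) and MYL12B did not pass (0.32, adjusted p = 0.0591).

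Among the transgelins, TAGLN2 rose and TAGLN3 fell with VPA. TAGLN2, the widely expressed form, had 24.3, 15.7 and 17.3 CPM in vehicle, 52.3, 53.0 and 57.4 CPM in VPA and 37.4, 42.2 and 39.6 CPM in VPA+Rapamycin. The conditions did not overlap, and TAGLN2 passed in all comparisons, at 2.82-fold with VPA (adjusted p = 9.93e-05, edgeR), 0.734-fold on adding Rapamycin (adjusted p = 0.00548) and 2.07-fold for both against vehicle (adjusted p = 0.00253), with SEs of 0.16, 0.09 and 0.17 on the log2 scale. On adding Rapamycin it did not pass in the fit of all 9 libraries (adjusted p = 0.18). TAGLN3, the neuronal form, had 113, 102 and 98.1 CPM in vehicle and 45.8, 51.0 and 58.6 CPM in VPA, a log2 fold change of -1.02 (SE 0.12, adjusted p = 0.000177). Of transgelin RPKM, TAGLN2 made up 11.4% in vehicle, 42.6% with VPA and 32.0% with VPA+Rapamycin, TAGLN3 87.3%, 56.3% and 66.6%, and the smooth muscle form TAGLN 1.29%, 1.09% and 1.38%.

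**Figure D3:**
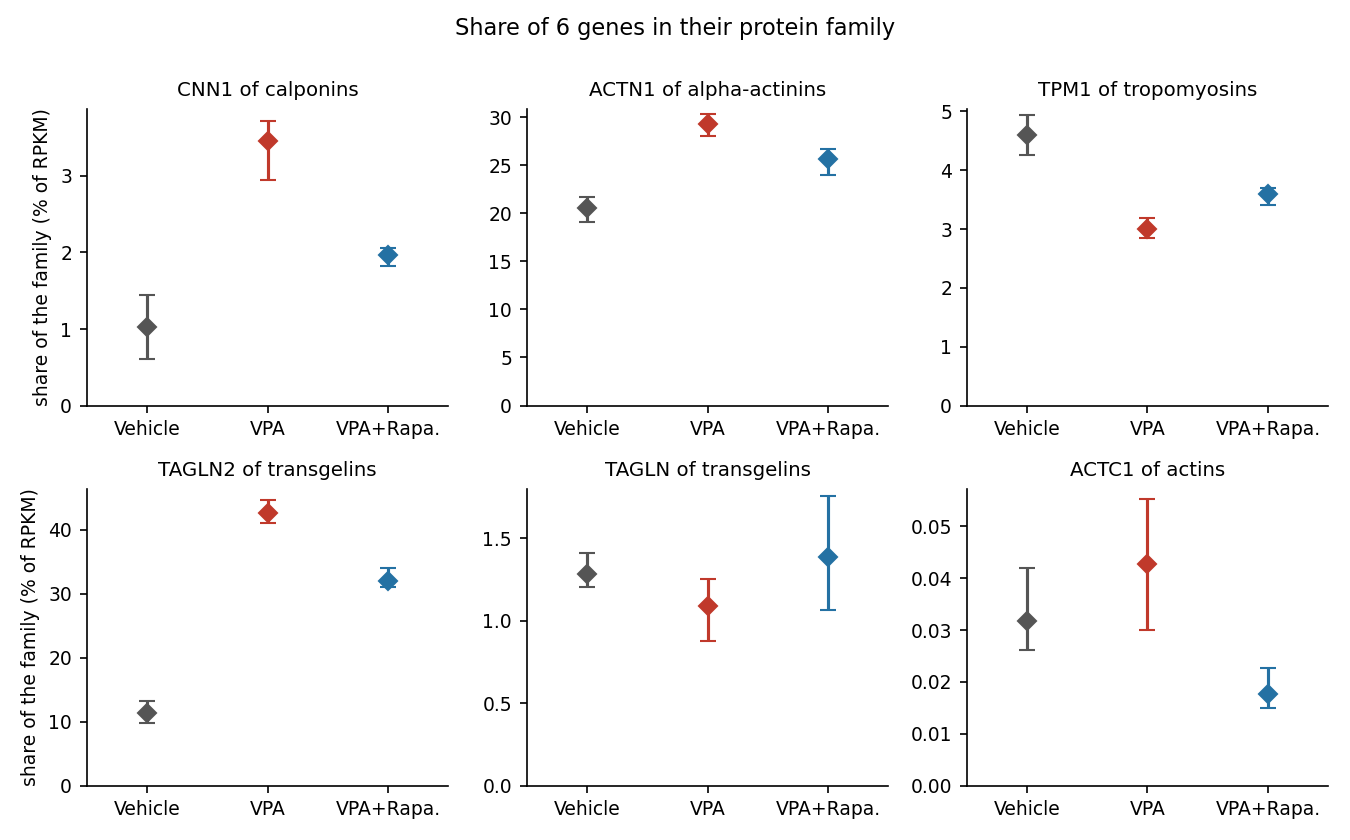
Share of 6 genes in the summed RPKM of their protein family, in percent on linear axes from 0. Diamonds are means of 3 libraries and bars run from the lowest to the highest library. The shares of CNN1, ACTN1 and TAGLN2 are highest in VPA, at 3.45%, 29.3% and 42.6%, while the ranges of TAGLN overlap among conditions.

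Other genes of smooth muscle were examined as a list of 15, of which 10 could be tested. SYNPO2, an actin-binding protein of contractile cells, had 3, 2 and 4 counts in vehicle and 19, 31 and 29 in VPA. It passed the filter on low counts through the VPA libraries alone, so its fit is not used. Of the other 9 genes 4 passed higher with VPA, beside 16.4% of all genes, and 0 lower in edgeR (0 lower also at an unadjusted p under 0.05 and in DESeq2), with a median log2 fold change of 0.72. With SYNPO2 counted there were 5 higher, and 3 without vehicle replicate 2, VPA replicate 2 or VPA replicate 3. SYNM, an intermediate filament protein of muscle, changed by 1.20 (SE 0.22, adjusted p = 0.00241) and CSRP1, a LIM protein that acts with SRF, by 1.49 (SE 0.31, adjusted p = 0.00463). On adding Rapamycin 2 of the 10 passed lower, beside 3.73% of all genes, CSRP1 and MYLK, the kinase of MYL9, which fell by 0.82 (SE 0.10, adjusted p = 9.86e-05) after a rise of 0.72 with VPA (SE 0.24, adjusted p = 0.0417). With all 9 libraries in 1 fit none of the 10 passed lower on adding Rapamycin, with adjusted p of 0.56 for CSRP1 and 0.13 for MYLK. Only 1 of them passed without VPA replicate 2 or 3 or VPA+Rapamycin replicate 3. The rise of MYLK with VPA passed under 8 of 13 alternatives. That rise was lost in DESeq2, without vehicle replicate 2 or without any 1 of the VPA replicates.

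Levels differed widely within the list. SMTN, smoothelin, had 42.1, 31.7 and 19.2 CPM in vehicle and 31.7, 30.1 and 39.3 CPM in VPA, and did not pass in any comparison. MYH11, the myosin heavy chain of smooth muscle, had 13, 19 and 22 counts in vehicle, 28, 18 and 31 in VPA and 28, 21 and 14 with Rapamycin added, and did not pass in any comparison. DES (desmin) had 3 to 4 counts in vehicle and 9 to 15 in VPA, and MYOCD, the cofactor that drives the smooth muscle programme, 1 to 5 and 5 to 13 counts. Neither could be tested, nor could KCNMB1, HSPB6 and PLN. The summed level of the list was 148 to 292 CPM in vehicle, 294 to 315 in VPA and 214 to 254 with Rapamycin added.

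Stress fibre and non-muscle myosin genes were all tested, 17 of 17. With VPA 8 passed higher, beside 16.4% of all genes, and 0 lower (0 lower at an unadjusted p under 0.05 in edgeR and 0 in DESeq2), with a median log2 fold change of 0.31. The 8 became 3 without vehicle replicate 2 or without any 1 of the VPA replicates, and without vehicle replicate 3 there were 9 higher and 2 lower. MYH14, a non-muscle myosin heavy chain, changed by 1.13 (SE 0.23, adjusted p = 0.0039, edgeR) and VCL, vinculin, by 0.49 (SE 0.12, adjusted p = 0.00875). On adding Rapamycin 3 of the 17 passed lower, beside 3.73% of all genes, and 0 when all 9 libraries entered 1 fit. The summed level overlapped among conditions, with 2053 to 2863 CPM in vehicle and 2611 to 2699 in VPA.

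SRF itself, the factor that binds the CArG box, was named after its values were seen. It had 62.7, 54.5 and 44.1 CPM in vehicle, 68.1, 71.3 and 82.6 in VPA and 57.5, 54.4 and 49.4 in VPA+Rapamycin. It rose by 0.45 with VPA (SE 0.14, adjusted p = 0.0296) and fell by 0.46 on adding Rapamycin (SE 0.09, adjusted p = 0.00516). The rise was lost without vehicle replicate 2 or without any 1 of the VPA replicates, and the fall in the fit of all 9 libraries (adjusted p = 0.12). The cofactors MRTFA and MRTFB did not pass, with estimates of 0.05 and -0.01 with VPA.

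Markers of other cells that hold these proteins were listed to show what else moved. Of 16 striated muscle markers 7 could be tested with VPA. MYOD1 passed the filter on low counts through the VPA libraries alone, and of the other 6 genes 3 passed higher and 1, TTN, lower, beside 16.4% and 15.7% of all genes. With MYOD1 counted there were 4 higher, and 2 without vehicle replicate 2, VPA replicate 1 or VPA replicate 2. TTN did not pass without vehicle replicate 2, VPA replicate 2 or VPA replicate 3, and 2 passed lower without vehicle replicate 3. MYOD1, the regulator of skeletal muscle, had 1, 0 and 0 counts in vehicle, 26, 17 and 14 in VPA and 9, 17 and 7 with Rapamycin added. The summed count of VPA over vehicle, for equal depth, was 55.7 with an exact 95% interval of 9.59 to 2236 for counting error only. The interval pools the libraries of a condition and leaves out their spread. Since MYOD1 was kept through its VPA counts, this ratio describes the counts and is not a test of a rise. TNNT1, slow skeletal troponin T, had 4.79, 2.04 and 0.681 CPM in vehicle, 11.7, 11.9 and 13.9 in VPA and 6.25, 4.89 and 3.72 in VPA+Rapamycin. It rose by 2.29 with VPA (SE 0.45, adjusted p = 0.00321) and fell by 1.32 on adding Rapamycin (SE 0.20, adjusted p = 0.000521), though not in the fit of all 9 libraries (adjusted p = 0.15). TNNI1 rose by 1.19 with VPA (SE 0.34, adjusted p = 0.0202). MYH6, TNNT2, MYL4 and MYF5 were missing from at least 1 table, and MYL7, MYOG and NKX2-5 had a mean of at most 3 counts. The summed level of these markers was 42.7 to 48.2 CPM in vehicle, 38.5 to 49.9 in VPA and 43.8 to 50.2 in VPA+Rapamycin, and their part in the levels of ACTC1 was not tested.

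Pericyte and mesenchymal markers gave 3 higher and 0 lower of 17 tested with VPA (5 and 1 at an unadjusted p under 0.05 in edgeR, 3 and 0 in DESeq2), beside 16.4% higher among all genes. NT5E, 1 of the 17, passed the filter on low counts through the VPA libraries alone, and the median over the other 16 was 0.14. The 3 higher were THY1 (log2 fold change 0.80, SE 0.12, adjusted p = 0.00076, edgeR) and the channel genes ABCC9 (0.94, SE 0.19, adjusted p = 0.0037) and KCNJ8 (0.74, SE 0.24, adjusted p = 0.0349). Without vehicle replicate 3 there were 8 higher and 1 lower. That library stood apart for some mesenchymal genes of the list, named after their values were seen, but not for all. LUM had 4.85, 4.41 and 35.8 CPM in vehicle and DCN 0, 0 and 6.0 CPM. TWIST1 was at 3.90 CPM and PRRX1 at 3.28 CPM in vehicle replicate 3 and at or near 0 in the other vehicle libraries. Other genes of the list were lowest in vehicle replicate 3, such as THY1 with 35.6, 29.8 and 28.7 CPM in vehicle and MCAM with 73.25, 73.89 and 60.23 CPM. On adding Rapamycin 3 of the 17 markers passed lower, beside 3.73% of all genes, and 0 when all 9 libraries entered 1 fit. The summed level of the pericyte and mesenchymal markers was 467 to 547 CPM in vehicle, 506 to 554 in VPA and 508 to 535 with Rapamycin added. NOTCH3 was the largest part of it, with 323 to 378 CPM in vehicle, 302 to 352 in VPA and 345 to 370 with Rapamycin added. The sum therefore says little about the other markers of the list. Endothelial markers gave 0 of 4 with VPA (2 higher and 0 lower at an unadjusted p under 0.05 in edgeR, 0 in DESeq2), with a summed level of 18.8 to 21.8 CPM in VPA and at most 20.3 CPM in vehicle. Of the neuron markers 5 of 8 passed lower with VPA, beside 15.7% of all genes, with a median of -0.61. There were 3 without vehicle replicate 2, VPA replicate 1 or VPA replicate 3, and 7 without vehicle replicate 1. Of the neural progenitor markers 1 passed higher and 2 lower of 10, with 4 lower without vehicle replicate 1 and 2 higher without vehicle replicate 3. Without vehicle replicate 1, 1 endothelial marker passed higher. The part of these cell types in the changes of CNN1, ACTN1 and TPM1 was not tested.

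**Figure D4:**
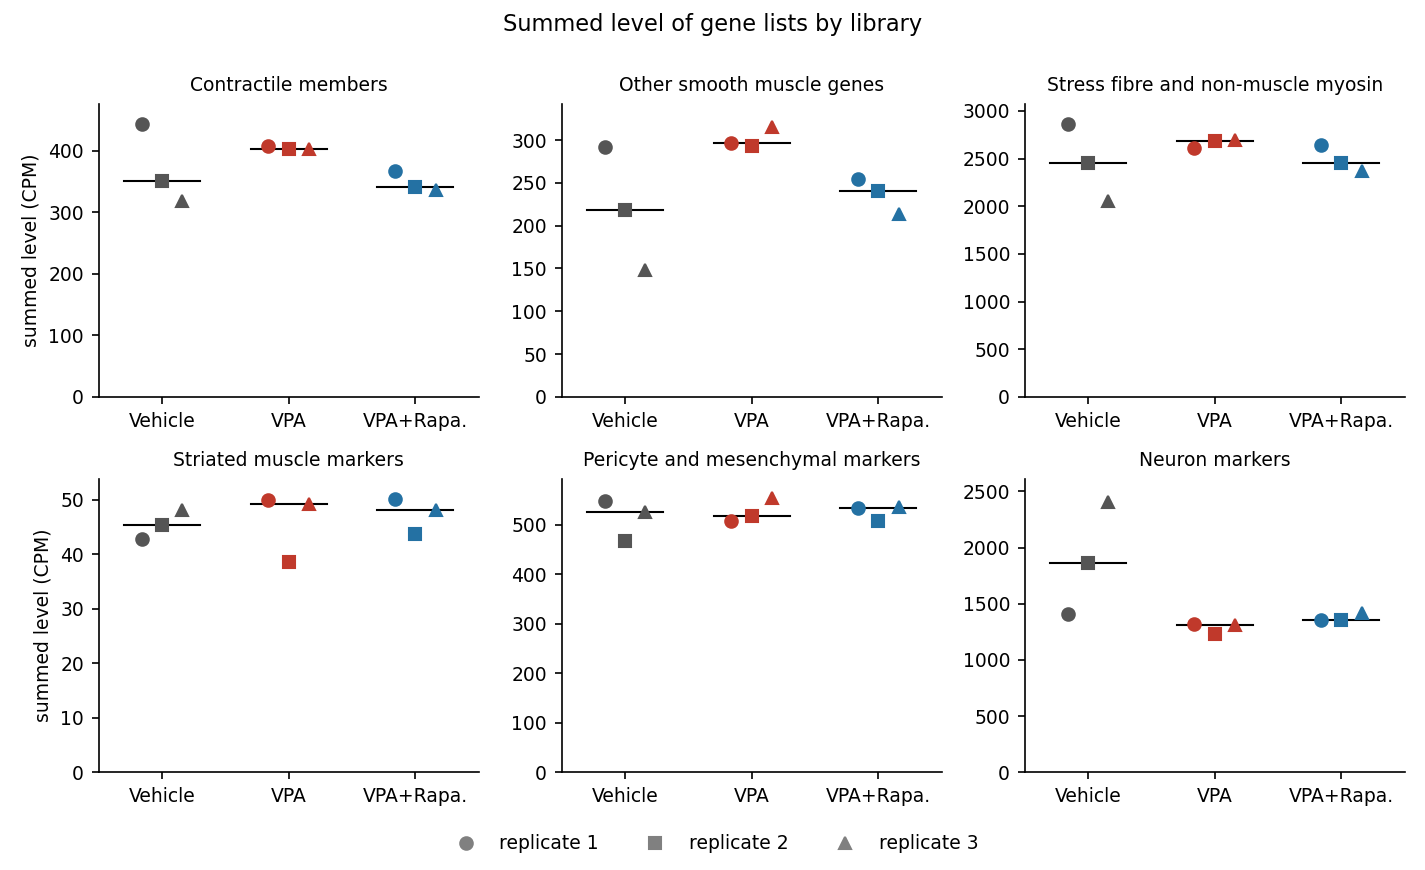
Summed level in CPM of 6 gene lists by condition, on linear axes from 0. Points are libraries, with the shape giving the replicate number, and lines are medians of 3 libraries. TTN is the largest part of the striated muscle sum and NOTCH3 of the pericyte and mesenchymal sum. In vehicle the contractile genes sum to 444 CPM in replicate 1 and 318 CPM in replicate 3, where the neuron markers sum to 1410 and 2406 CPM.

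To place the genes that passed, the 3 genes with the most similar pattern over the 9 libraries were sought among 16734 genes, by the root mean square (RMS) difference of log2 levels centred on each gene's mean. For CNN1 these were PCDHA13 (RMS difference 0.15), SOD3 (0.21) and CPNE7 (0.21), while CNN1 itself varied with an RMS of 0.78 around its mean. For ACTC1 they were MX1, HES1 and TCIM, at 0.27 to 0.29, with 0.68 for the gene itself. For ACTN1 they were PFN1 (0.05), which encodes the actin-binding protein profilin, SAE1 and PNP, and for TPM1 they were ZNF607, CLIC1 and RNF24, at 0.08. No member was among the 3 nearest genes of another member. The libraries share conditions and depth, so these values describe likeness over 9 points only.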

How the data were processed

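Bulk RNA was measured in 9 SCO libraries grouped by the treatment label. The authors deposited raw counts per gene in a table for each pair of conditions, with coordinates on GRCh38. Per the submitters' processing notes the tools were HISAT2 2.0.5 and featureCounts 1.5.0-p3. The use of strand is not given in the sources used here. The tables also hold the authors' normalized values and FPKM (36 columns of per-sample values) and their own fold changes and p-values, none of which was used.

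Each pair of conditions was tested in its own table with edgeR 4.0.16 under R 4.3.3 (TMM factors, filterByExpr defaults, quasi-likelihood F test, all genes of a table, adjusted p of at most 0.05, no replicate block). Shares of all genes refer to that threshold in edgeR or to groups without overlap. Counts at an unadjusted p or in DESeq2 have no such share beside them. The standard error is the log2 fold change over the root of F. CPM used TMM factors over 9 libraries, and RPKM the gene length the authors deposited. Alternatives were DESeq2 1.42.0, other scaling factors and filters, 1 fit of 9 libraries, the replicate block and leaving out each library. The fits were tested on simulated data. Promoters are RefSeq's, and transcripts are GENCODE 29, whose coordinates are those of the tables for all 10 genes.

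The members and lists were chosen with earlier results of these data known. All members are named. From each other list the 3 genes with the smallest adjusted p in VPA against vehicle, relatives of a member, and the 3 genes most like each member that passed are named. Other genes named, among them MYLK, MYH11, DES, MYOCD, MRTFA, MRTFB, SMTN, NT5E, LUM and TTN, were chosen after their values were seen. Some items of these lists are not reported here.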

Additional observations from a re-analysis of the deposited data

How the results depend on the processing

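The number of members passing higher with VPA was 1 to 3 and lower 0 to 1 when a library was left out (2 and 1 with all). For VPA+Rapamycin against VPA the number lower was 2 to 4 when a library was left out (3 with all), and 1 with all 9 libraries in 1 fit. For VPA+Rapamycin against vehicle, leaving out a library gave 0 to 1 higher and 0 to 2 lower (0 and 1 with all). The number lower was 2 with DESeq2, with median-of-ratios size factors, without a filter, with at least 10 counts in every library, with all 9 libraries in 1 fit and with the replicate block, and 0 with upper-quartile factors; the cause was not tested.

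Estimates that changed sign belonged to members that did not pass. Leaving out a library, in VPA against vehicle ACTA2 ranged from -0.12 (without vehicle replicate 3) to 0.35 and TPM2 from -0.22 to 0.20 (without vehicle replicate 1). In VPA+Rapamycin against vehicle MYL9 ranged from -0.062 (without vehicle replicate 3) to 0.74, and TPM2 from -0.37 to 0.046 (without vehicle replicate 1). Over all single-member results 316 kept their direction and their side of the threshold, 12 passed newly, 17 no longer passed and 6 changed sign.

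Same-numbered libraries had correlations of deviations from -0.0574 to 0.14, most of them below 0.1. The main tests took no pairs because the labels do not say which clone a replicate number stands for. Whether same-numbered libraries come from the same clone is not settled by the sources used here. With the replicate block 3 members passed higher and 1 lower with VPA, 0 and 3 for VPA+Rapamycin against VPA, and 0 and 2 for VPA+Rapamycin against vehicle. MYL9 with VPA (0.69, adjusted p = 0.0466, edgeR) and TPM1 in VPA+Rapamycin against vehicle (-0.44, adjusted p = 0.0216) passed with the block, where the test as reported gave an adjusted p of 0.15 and 0.0511. With counts of 29 to 125 for ACTC1 and 31 to 69 for TAGLN, depth limits these genes more than the other tested members.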
